A study of Homo sapiens with 2 samples.

Results

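The genes described here are 10 genes of the NRF2 antioxidant response, measured by RNA-Seq in HEK293T cells. The list was drawn up with earlier results of these data known, and its members were found in the tables by symbol, with no measured value in the rule: NFE2L2, KEAP1, GCLC, GCLM, SLC7A11, TXN, TXNRD1, SRXN1, NQO1 and HMOX1. Each symbol matched 1 of the 57736 gene identifiers in the tables by the GRCh37 annotation, so all 10 were found in both libraries. HEK293T is a human line that was made from embryonic kidney cells with adenovirus DNA and later given the SV40 large T antigen. The cells were wild type by their labels, grew in serum-containing DMEM and received no treatment that the labels name. Poly(A)+ RNA was sequenced in 2 replicates of this single group, so no condition was compared with another, and the values describe 1 line at rest in culture. The labels do not say whether the replicates came from separate cultures, and the p-values below then measure only how 2 libraries differ.

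NRF2, the protein of NFE2L2, is a transcription factor of the cap'n'collar family. In unstressed cells KEAP1 holds it and passes it to the ubiquitin ligase built on CUL3, so that it is degraded. Oxidants and electrophiles modify cysteines of KEAP1, NRF2 then accumulates, pairs with a small MAF protein and binds antioxidant response elements near its target genes. The other 8 genes are well-known targets that make glutathione, keep thioredoxin reduced or handle quinones and heme. NRF2 is regulated to a large part as a protein, which RNA levels do not show.

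The promoters of these genes were read first, since the antioxidant response element is what ties them together. RefSeq windows on GRCh38.p14, from 250 bases before to 50 bases after a transcription start, were given for 8 of the 10 genes in 11 windows, and HMOX1 and SLC7A11 had no entry. Both strands of each window were searched for TGACNNNGC, the core of the element. Matches were found in 4 of the 11 windows, which belong to GCLM, KEAP1 and TXNRD1, against 13.3% of 35116 windows of the same length over all genes. Counted by gene, a match was found for 3 of these 8, for 17 of 73 other genes of the pathway with a window (23.3%) and for 16.1% of 27305 genes in all. The 250 bases upstream of the start are shown for the 3 genes with a match, in 1 window each, 5′ to 3′ on the strand of the gene, with the matches in capitals. They lie at chr1:93909431-93909680 on the minus strand for GCLM, at chr19:10502772-10503021 on the minus strand for KEAP1 and at chr12:104286782-104287031 on the plus strand for TXNRD1, on GRCh38.p14, whereas all other coordinates below are on GRCh37.
GCLM: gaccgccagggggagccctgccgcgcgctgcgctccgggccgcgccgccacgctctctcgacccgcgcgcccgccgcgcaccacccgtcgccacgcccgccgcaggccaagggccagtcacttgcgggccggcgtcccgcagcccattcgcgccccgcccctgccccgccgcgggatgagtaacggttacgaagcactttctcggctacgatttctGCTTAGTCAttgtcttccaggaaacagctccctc
KEAP1: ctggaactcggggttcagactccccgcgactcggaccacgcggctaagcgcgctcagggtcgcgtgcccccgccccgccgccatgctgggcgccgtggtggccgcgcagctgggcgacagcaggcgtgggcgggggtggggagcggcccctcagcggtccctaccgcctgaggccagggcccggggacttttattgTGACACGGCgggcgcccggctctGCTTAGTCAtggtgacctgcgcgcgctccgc
TXNRD1: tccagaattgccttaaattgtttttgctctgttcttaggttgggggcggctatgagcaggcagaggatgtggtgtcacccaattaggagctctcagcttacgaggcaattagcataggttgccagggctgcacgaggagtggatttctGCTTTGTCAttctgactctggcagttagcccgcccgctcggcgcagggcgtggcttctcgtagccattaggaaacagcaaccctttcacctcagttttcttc
GCLM and KEAP1 held the same 9 bases, GCTTAGTCA, which read TGACTAAGC on the other strand. Counted from the transcription start, this match began at position -34 in GCLM and at -31 in KEAP1. KEAP1 held a second match, TGACACGGC, on the strand of the gene. The match of the TXNRD1 window was GCTTTGTCA at position -102, and a second TXNRD1 window, not shown, held TGACTTCGC and GCTCCGTCA. A match is a description of letters and not a binding site, and the 7 windows without one say nothing about NRF2.

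The libraries held 10593491 and 10104118 estimated counts (reads per gene, in which reads with more than 1 possible origin are divided among the genes). At this depth a count of 0 allows up to 3 counts, or 0.283 CPM in replicate 1 and 0.297 CPM in replicate 2, and these limits cover counting error only because reads copied by PCR are not independent molecules. The kidney label was read against 15 matched kidney markers. SIX2, WT1, EYA1, LRP2 and PAX2 were detected, whereas UMOD, AQP2, SLC12A3 and CDH16, which mark differentiated nephron segments, had 0 counts in both libraries. Markers of other cell types were low: their summed TPM was 6.24 and 5.84 for blood cells, 0.20 and 0.30 for endothelium and 12.3 and 10.7 for fibroblasts, the last mostly COL1A1. Detected were 1 of 6 blood, 0 of 3 endothelial and 1 of 5 fibroblast markers. The detected blood marker was HBA1, a globin gene, with a mean TPM of 4.03 ± 0.0424 (SD, n = 2). Among these blood, endothelial and fibroblast markers, only HBB, CD3E and CDH5 had 0 counts in both libraries. The part of other cell types in the results was not tested.

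All 10 genes were detected, meaning that neither replicate was under a TPM of 1. TPM is the share of a library's transcripts that a gene holds, corrected for length and scaled to the same total in every library. The same threshold was passed by 27.7% of all 57736 genes and by 63.7% of 19391 protein-coding genes. The mean TPM ran from 298 ± 13.1 for TXN to 4.66 ± 0.622 for SLC7A11 (SD, n = 2), a 63.9-fold span. The median of the 10 genes was 35.3, against 21.2 over the 12345 detected protein-coding genes. Of the 10, 7 had a mean above that value, though GCLM was under it in replicate 1, at 20.5. The means of SRXN1, NQO1 and SLC7A11 lay below that value. Summed, the 10 genes made 0.0596% of replicate 1 and 0.0617% of replicate 2 by TPM, and TXN alone made up 48.4% and 49.8% of that sum.

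**Figure D1:**
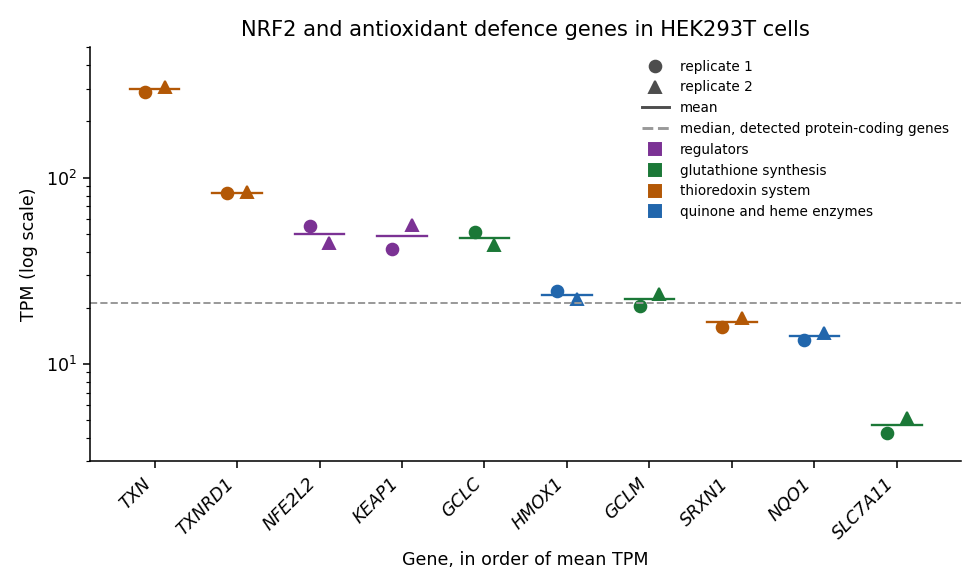
TPM (log scale) of the 10 genes in replicate 1 (circles) and replicate 2 (triangles), in order of the mean (bars), coloured by role, with the median of the detected protein-coding genes dashed. TXN stood highest at 289 and 307 and SLC7A11 lowest at 4.22 and 5.10. The means of NFE2L2, KEAP1 and GCLC lay close together, at 49.6, 48.3 and 47.1, while their points changed order between the replicates.

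The regulator and its inhibitor were present at similar levels. NFE2L2 (ENSG00000116044) lies on chromosome 2 from 178083395 to 178257484 on the minus strand, and 14 of its transcripts were listed in the tables. It had 775 and 679 estimated counts and a TPM of 54.7 in replicate 1 and 44.4 in replicate 2, a mean of 49.6 ± 7.33 (SD, n = 2). KEAP1 (ENSG00000079999), the substrate adaptor that binds NRF2, lies on chromosome 19 from 10596801 to 10614234 on the minus strand, with 10 transcripts listed. Its counts were 662 and 638 and its TPM was 41.3 and 55.3, a mean of 48.3 ± 9.85 (SD, n = 2). NFE2L2 was thus the higher of the pair in replicate 1 and KEAP1 in replicate 2. The TPM of NFE2L2 over that of KEAP1 was 1.32 in replicate 1 and 0.803 in replicate 2, a mean of 1.06 ± 0.369 (SD, n = 2), so the order of the pair was not settled by these libraries. Both genes ranked near the 75th percentile of the detected protein-coding genes, NFE2L2 at 75.2 and KEAP1 at 74.6.

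Glutathione is made from glutamate, cysteine and glycine, and the enzyme of its first and limiting step is a dimer of GCLC and GCLM. GCLC (ENSG00000001084), the catalytic subunit, lies on chromosome 6 from 53362139 to 53481768 on the minus strand. It had 477 and 515 counts and a TPM of 50.7 and 43.5, a mean of 47.1 ± 5.08 (SD, n = 2). GCLM (ENSG00000023909), the modifier subunit, lies on chromosome 1 from 94350755 to 94375012 on the minus strand. Its counts were 451 and 513 and its TPM was 20.5 and 23.8, a mean of 22.1 ± 2.36 (SD, n = 2). The counts of the subunits were nearly equal, at 1.06 and 1.00 GCLC counts per GCLM count. Per length, which is the scale for comparing genes, the ranges did not overlap, and GCLC was 2.48-fold higher in replicate 1 and 1.83-fold higher in replicate 2, a mean ratio of 2.15 ± 0.460 (SD, n = 2). GSS, the enzyme of the second step, had a mean TPM of 31.8 ± 1.15 (SD, n = 2) and lay between the subunits in both libraries.

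SLC7A11 (ENSG00000151012) is the light chain of the transporter that brings in cystine, the source of cysteine, in exchange for glutamate. It lies on chromosome 4 from 139085251 to 139163503 on the minus strand. With 302 and 352 counts spread over an estimated length of 9645 nt, it had a TPM of 4.22 and 5.10 and ranked at percentile 16.3 of the detected protein-coding genes. SLC3A2, the heavy chain that carries this and several other light chains to the membrane, stood at 106 and 114 TPM. The heavy chain was 25.2-fold and 22.3-fold above the light chain, a mean ratio of 23.8 ± 2.05 (SD, n = 2). In counts, without the correction for length, there were 0.250 and 0.309 light chain counts per heavy chain count.

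Thioredoxin and its reductase were the highest of the 10 genes, whereas SRXN1 ranked lower. TXN (ENSG00000136810), a small protein that reduces disulfides, lies on chromosome 9 from 113006090 to 113018787 on the minus strand. Its counts of 1758 and 1804 on an estimated length of 865 and 866 nt gave a TPM of 289 and 307, at percentile 97.5 of the detected protein-coding genes. TXNRD1 (ENSG00000198431), the selenoprotein that reduces TXN with NADPH, lies on chromosome 12 from 104609557 to 104744085 on the plus strand. It was assigned nearly as many reads, 1715 and 1590 counts, but its TPM was 82.1 and 83.5, the smallest relative spread of the 10 genes (mean 82.8 ± 0.983, SD, n = 2). There were 0.284 and 0.272 TXNRD1 transcripts per TXN transcript by TPM, a mean of 0.278 ± 0.00893 (SD, n = 2).

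SRXN1 (ENSG00000271303) restores overoxidized peroxiredoxins and lies on chromosome 20 from 627259 to 633844 on the minus strand. Its counts were 310 and 336 and its TPM was 15.7 and 17.6, a mean of 16.7 ± 1.39 (SD, n = 2). PRDX1, one of the peroxiredoxins it acts on, was 42.2-fold and 37.2-fold higher by TPM.

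NQO1 (ENSG00000181019) reduces quinones in a single step that avoids radicals, and HMOX1 (ENSG00000100292) is the inducible enzyme that opens the heme ring. NQO1 lies on chromosome 16 from 69740899 to 69760571 on the minus strand, and its counts of 117 and 109 were the lowest of the 10 genes. The TPM of NQO1 was 13.4 and 14.7, a mean of 14.0 ± 0.940 (SD, n = 2). HMOX1 lies on chromosome 22 from 35776354 to 35790207 on the plus strand, with 302 and 268 counts and a TPM of 24.5 and 22.3, a mean of 23.4 ± 1.60 (SD, n = 2). The HMOX1 values lay just above the median of the detected protein-coding genes in both libraries.

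In the order of mean TPM, the genes ran TXN, TXNRD1, NFE2L2, KEAP1, GCLC, HMOX1, GCLM, SRXN1, NQO1 and SLC7A11. The replicate ranges of neighbours did not overlap at 6 of the 9 steps. They overlapped between NFE2L2 and KEAP1, between KEAP1 and GCLC and between HMOX1 and GCLM. Those neighbours did not differ beyond their spread, with mean ratios of 1.06 ± 0.369, 1.04 ± 0.321 and 1.07 ± 0.186 (SD, n = 2). With 2 values a gene no exact permutation test between genes could reach a p under the threshold, so none was run.

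The replicates were then compared, to learn which of the differences between them came with the reads and which with the lengths used to turn reads into TPM. The length of a gene in these tables is a mean over its listed transcripts, weighted by how much of each was estimated, so it can differ between libraries. Reads and length multiply, and on the log2 scale the ratio of TPM between replicates is the sum of both parts. The part of the reads holds the ratio of counts plus the scaling of the libraries to the same total of TPM. For KEAP1 this scaling added 0.05 to a count ratio of -0.05. It is not the scaling used in the test of counts below. For KEAP1, the part of the reads was 0.00 and the part of the length 0.42, since the estimated length fell from 2195 nt in replicate 1 to 1655 nt in replicate 2. For GCLC the parts had opposite signs, 0.17 from the reads and -0.39 from the length, which was 1308 nt in replicate 1 and 1695 nt in replicate 2. GCLC thus had more scaled reads but a lower TPM in replicate 2. For NFE2L2 the parts were -0.14 and -0.17, with a length of 1947 and 2180 nt.

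**Figure D2:**
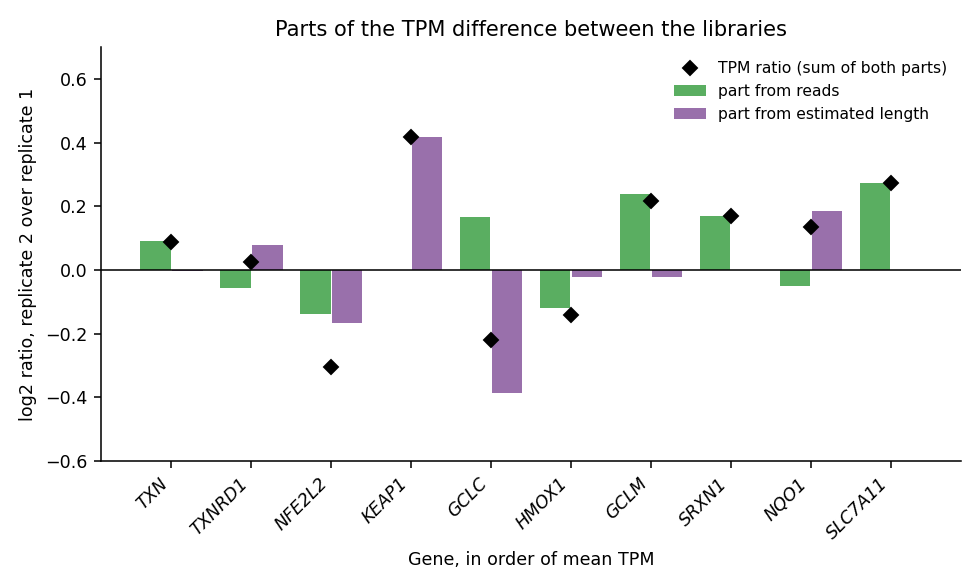
Log2 ratio of replicate 2 over replicate 1 for the 10 genes in order of mean TPM, with the part from reads (green bars), the part from estimated length (purple bars) and their sum, the ratio of TPM (diamonds). The diamond of KEAP1 at 0.42 rests on the length bar, and the bars of GCLC point in opposite directions.

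The part of the length was the larger one for 5 genes: TXNRD1, NFE2L2, KEAP1, GCLC and NQO1. Among the 10 genes, 4 had effective lengths (estimated lengths less the ends where no read can start) that differed more than 1.1-fold between replicates: KEAP1 by 1.34-fold, GCLC by 1.31-fold, NQO1 by 1.14-fold and NFE2L2 by 1.12-fold. A difference of this size was found for 31.7% of the 12345 detected protein-coding genes, so the 4 of 10 is close to what the tables show in general. SRXN1, with 1 listed transcript, and SLC7A11, with 2, kept the same length in both libraries. TXNRD1 had the most transcripts listed, 28, and its length moved by only 1.06-fold. Its parts also had opposite signs, -0.05 from the reads and 0.08 from the length, so its small spread in TPM came from parts that nearly cancelled. With the mean effective length of both replicates used in each, an alternative added after the data were seen, the ratio of NFE2L2 to KEAP1 was 1.09 and 0.992, a mean of 1.04 ± 0.0703 (SD, n = 2). The spread of the GCLC to GCLM ratio shrank likewise, to 2.11 ± 0.0774 (SD, n = 2). The median absolute log2 ratio of TPM between replicates was 0.19 for the 10 genes and 0.14 for the detected protein-coding genes.

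None of the 10 genes passed the threshold when the counts of the libraries were compared (exact binomial test, two-sided), with Benjamini-Hochberg adjustment over 17920 genes. At an adjusted p under the threshold of 0.05, 3.88% of the tested genes were called. The unadjusted p of the exact test was under the threshold for 4 of the 10, GCLM, SLC7A11, TXN and GCLC, and for 2377 of the 17920 tested genes. GCLM came nearest, with counts higher in replicate 2 by 0.26 on the log2 scale after scaling (exact binomial adjusted p = 0.0892, with 0.0806 to 0.148 under other scalings and filters). SLC7A11 was also higher in replicate 2, by 0.30 (exact binomial adjusted p = 0.138). The test compares these 2 libraries and not conditions, and its p-values, here and below, cover counting error only, with every read taken as an independent molecule.

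The tables also carry measures of how reads were shared among genes. The posterior SD of the count, which describes this sharing, was 0 in both libraries for TXNRD1, KEAP1, HMOX1 and GCLM. It was above 1% of the count in both libraries only for SRXN1, with 3.23% and 2.29%, and NQO1, with 1.53% and 2.15%. Counting error alone, the inverse square root of the count, ran from 2.35% to 9.57% over the 10 genes and was the larger one for each. The 95% intervals that the authors' tables give for TPM overlapped between the replicates for all 10 genes. TXN was the only gene whose TPM lay outside its interval, in both libraries above it: the intervals were 255 to 280 and 271 to 297.

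Some of these genes share exons with others, which was read over the transcripts listed in the tables as placed by the annotation. SRXN1 shared 2292 of its 2528 exonic nt, or 90.7%, with ENSG00000270299, a protein-coding gene on the same strand. That gene was listed with 0 counts in both libraries and with a posterior SD of 10.0 and 7.69, the same as those of SRXN1. The reads of this locus were therefore all given to SRXN1, and its level is uncertain to the extent that they could belong to its neighbour.

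NQO1 shared 575 nt, 19.4% of its exonic length, with ENSG00000261602, a lncRNA gene on the opposite strand that had 0.07 and 3.75 counts. SLC7A11 shared 865 nt (8.97%) with SLC7A11-AS1, an antisense lncRNA with 7.57 and 7.25 counts. NFE2L2 shared 1041 nt (15.5%) with ENSG00000213963, a lncRNA gene on its own strand that had 6.76 and 7.74 counts. These counts are small beside those of the genes described. NFE2L2 also shared 190 nt with ENSG00000222043 (1.83 and 0 counts) on the opposite strand. GCLC shared 529 nt with ENSG00000231683 (0 and 1 count) and 16 nt with GCLC-AS1 (2 and 2 counts). The sources used here do not state a strand setting for the counting. SLC7A11 and SLC7A11-AS1 had the same posterior SD, 1.05 in replicate 1 and 0.89 in replicate 2. Equal values are what reads shared between the strands would give. For this pair, some reads can therefore not be assigned to a strand with certainty. The SD was 0.347% and 0.253% of the SLC7A11 count, so few of its reads were in question. GCLC-AS1 had a posterior SD of 0 in both libraries.

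The 10 genes were set beside their nearest relatives and partners. Among the cap'n'collar factors, NFE2L1, which controls proteasome genes, was the highest, with a TPM of 89.2 and 67.7. It was 1.63-fold and 1.53-fold above NFE2L2, a mean ratio of 1.58 ± 0.0728 (SD, n = 2). NFE2L3 had 12.6 and 15.8 TPM, and NFE2, the factor of the erythroid lineage, was at 0.38 and 0.12 TPM with 5 counts and 1 count. NFE2L2 thus ranked second of these factors in both libraries. BACH1, which occupies the same elements as a repressor, had a TPM of 13.8 and 16.7, and NFE2L2 was 3.98-fold and 2.66-fold above it. CUL3, the scaffold of the ligase, was 1.58-fold and 1.21-fold above its adaptor KEAP1.

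In the thioredoxin system the cytosolic form was the highest of each family. TXN was 2.76-fold and 2.83-fold above TXN2, the mitochondrial thioredoxin, a mean ratio of 2.79 ± 0.0515 (SD, n = 2). TXNRD1 was 3.36-fold and 3.44-fold above the mitochondrial TXNRD2 and 11.9-fold and 11.6-fold above TXNRD3, a form known from testis. For heme and quinones, HMOX1 and NQO1 each stood below their relative. HMOX2, the constitutive heme oxygenase, was 2.55-fold and 2.90-fold above HMOX1, a mean ratio of 2.73 ± 0.243 (SD, n = 2). NQO2, a related enzyme that uses another electron donor, was 2.45-fold and 1.81-fold above NQO1, a mean ratio of 2.13 ± 0.455 (SD, n = 2).

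The rest of the pathway was described by 10 lists with 92 genes in all, of which 90 matched an identifier and 75 were detected. TXNIP and SOD2 were not analysed here. The median TPM of the 90 genes was 29.8, and 8 of them had 0 counts in both libraries. Between the libraries 3 of 79 tested genes were called by the exact binomial test, beside the 3.88% over all genes. PRDX3 and BACH1 had more scaled reads in replicate 2 (exact binomial adjusted p = 0.00773 and 0.0217) and FTH1 fewer (exact binomial adjusted p = 0.0163).

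**Figure D3:**
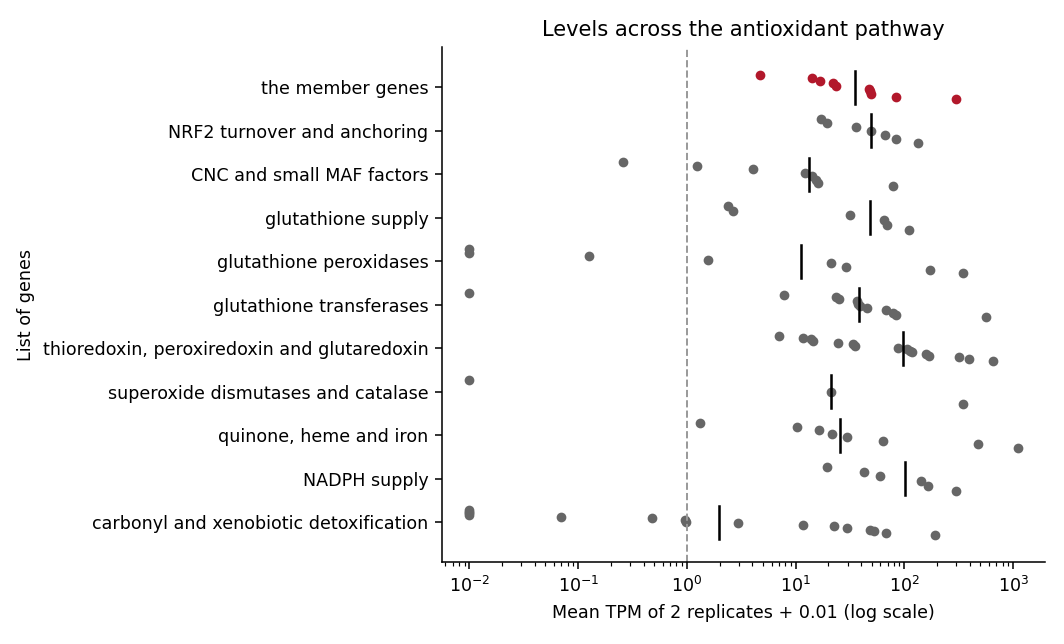
Mean TPM of both replicates plus 0.01 (log scale) for the 10 genes (red) and for the matched genes of the pathway lists (grey), with the median of each list as a bar and a TPM of 1 dashed. The NADPH and thioredoxin lists had medians of 101 and 97.1, and the list of carbonyl and xenobiotic detoxification the lowest, at 1.97.

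All 7 genes of NRF2 turnover and anchoring were detected, with a median TPM of 49.2. PGAM5, a mitochondrial phosphatase that binds KEAP1, was the highest at 132 ± 10.3 (SD, n = 2), followed by SQSTM1, the autophagy receptor that takes up KEAP1, at 83.6 ± 4.46 (SD, n = 2). BTRC, an adaptor of another ligase for NRF2, was the lowest at 17.2 ± 0.445 (SD, n = 2). Of 8 cap'n'collar and small MAF factors 7 were detected, with a median of 13.2. MAFG, a partner of NRF2, had a mean TPM of 16.2 ± 0.792 (SD, n = 2).

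Most genes of glutathione supply, use and recycling were detected. All 6 listed supply genes were detected (median 48.2), led by SLC3A2 and by GSR, the reductase that recycles glutathione, at 69.4 ± 2.11 (SD, n = 2). GGT1, which cleaves glutathione outside the cell, was the lowest at 2.40 ± 0.0495 (SD, n = 2). Of 8 glutathione peroxidases 5 were detected, and GPX4, which reduces lipid peroxides, and GPX1 stood at 347 ± 9.89 and 172 ± 6.33 (SD, n = 2), whereas GPX5 and GPX6 had 0 counts. Of 12 glutathione transferases 11 were detected, with GSTP1 at 566 ± 7.89 and GSTK1 at 83.1 ± 4.75 (SD, n = 2), and GSTA1 had 0 counts in both libraries.

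The list of thioredoxins, peroxiredoxins and glutaredoxins was detected in full, 16 of 16 matched genes, with a median TPM of 97.1. PRDX1 and PRDX2, peroxidases of the cytosol, were its highest genes at 659 ± 3.66 and 389 ± 4.04 (SD, n = 2), both above TXN. TXNRD3 was its lowest at 7.03 ± 0.198 (SD, n = 2). All 6 genes of NADPH supply, which feeds the reductases, were detected with a median of 101, from TKT at 295 ± 12.1 and TALDO1 at 166 ± 5.71 down to ME1 at 19.5 ± 0.785 (SD, n = 2). Of 3 matched superoxide dismutases and catalase, SOD1 had a TPM of 347 ± 17.9 and CAT of 21.0 ± 0.106 (SD, n = 2), and SOD3, the extracellular form, had 0 counts.

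Of the 8 genes of quinone, heme and iron handling 7 were detected. The ferritin chains FTH1 and FTL, targets of NRF2 that store iron, were the highest at 1101 ± 71.1 and 480 ± 17.2 (SD, n = 2), and the iron exporter SLC40A1 was the lowest with 0.86 and 1.75. Ferritin genes, like TXN, PRDX1 and GPX1, have processed pseudogene copies, and counts that such copies can share are uncertain to that extent. The posterior SD, which describes read sharing, was 5.96 and 5.50 for FTH1, beside 5825 and 5159 counts. For GPX1 it was 6.48 and 6.13, beside 1441 and 1318 counts. It was smaller for FTL, TXN and PRDX1.

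Carbonyl and xenobiotic detoxification was the list with the smallest share of detected genes, 8 of 16. AKR1B1, an aldose reductase, stood at 191 ± 6.75 and CBR1, a carbonyl reductase, at 67.3 ± 3.54 (SD, n = 2). In contrast, AKR1C1, AKR1C2, AKR1C3 and AKR1B10, aldo-keto reductases known as NRF2 targets, all had 0 counts in both libraries, which allows up to 3 counts in each. NQO1 and the AKR1C genes are both used as readouts of NRF2 in human cells, and here NQO1 had 117 and 109 counts and the AKR1C genes none. The targets among the 10 genes ran from SLC7A11 at percentile 16.3 to TXN at percentile 97.5 of the detected protein-coding genes. The activity of NRF2 was not tested.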

How the data were processed

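Poly(A)+ RNA of 2 HEK293T replicates was analysed. The submitters' processing notes name Trimmomatic 0.36, STAR 2.6.1c and RSEM 1.3.1 with GRCh37.p13. The methods name Trimmomatic and STAR and ascribe counting to featureCounts with the genes of Ensembl release 87, but the deposited columns are those of RSEM. Estimated counts were deposited by the authors, not normalized. TPM and FPKM values, scaled by length and depth, were also made by the authors. Scores deposited by the authors are the posterior SD of each count and the limits of a 95% interval of each TPM. A pooled table held the authors' values for both libraries together.

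GENCODE release 44, mapped to GRCh37, gave symbols and positions and matched 55501 of 57736 identifiers (96.1%). It is later than the authors' annotation, so some transcript models differ. A gene with a TPM of 1 or more in each replicate was called detected. Rounded estimated counts entered an exact binomial test, two-sided (scipy 1.17.1), against library sizes scaled by TMM (edgeR 4.0.16, R 4.3.3), and p-values were adjusted (Benjamini-Hochberg) across genes whose counts summed to 10 or more. Ratios were taken within each library. The lowest p of an exact permutation test of 2 against 2 values lies above 0.05. The 10 genes and all lists were chosen with earlier results of these data known. Genes named from the lists were the highest pair, the lowest and those called between libraries, plus relatives and partners of the 10 genes and genes sharing exons with them. Alternatives were other thresholds, units, normalizations and filters, the pooled table, a fixed length and leaving out each replicate. Marker lists covered kidney, blood, endothelium and fibroblasts. LHX1 and PECAM1 were not analysed here.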

Additional observations from a re-analysis of the deposited data

How the results depend on the processing

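The number of the 10 genes detected was 10 under each alternative except a TPM of at least 5, where it was 9, and that of pathway genes was 69 to 81 against 75. None of the 10 genes was called between the libraries under any normalization or filter. The ratio of NFE2L2 to KEAP1 was 1.06, ran from 0.803 without replicate 1 to 1.32 without replicate 2, and so changed direction with the library. By estimated counts, with no correction for length, GCLC to GCLM fell to 1.03 from 2.15, SLC7A11 to SLC3A2 rose to 0.279 from 0.0423 and TXNRD1 to TXN rose to 0.929 from 0.278. That shift is built into the unit. The share of the 10 genes was 0.0607% of all TPM, 0.0872% of the TPM of protein-coding genes and 0.0661% of the counts. Of the 9 steps in the order of mean TPM, 7 kept their direction by counts, and 7 to 8 did so with 1 replicate left out. The median posterior SD was 0.0480% of the count, whereas the width of the 95% TPM interval had a median of 33.3% of the TPM. No paired analysis was possible because there is only 1 group. With 2 libraries an SD is itself uncertain, and depth limits NQO1 most, at 117 and 109 counts.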
